A study of Homo sapiens with 6 samples.

Results

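The genes described here are 33 genes of cholesterol synthesis, its transcriptional control by SREBP2, and sterol uptake, transport and efflux, read in LoVo cells after knockdown of the splicing factor SRSF11. They comprise 8 enzymes from acetyl-CoA to the isoprenoid diphosphates, 11 enzymes from squalene synthesis to cholesterol, 6 genes that control SREBP2, 5 genes of sterol uptake and transport and 3 genes of efflux and esterification. Members were taken from the gene count table by name, and all 33 were found among its 58735 genes. The set was chosen by pathway after the difference between the conditions was known, since INSIG1 and SQLE stood among the larger rises. The differences between conditions below are therefore a description and no test of the set, and some steps of the pathway are not analysed here.

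LoVo is an established human colorectal cancer line. The cells were transfected with a negative control siRNA (si-NC, 3 libraries) or with siRNA that targets SRSF11 (3 libraries, called si-SRSF11), with no other treatment named in the labels. Sequencing read poly(A) RNA in pairs of 150 bases. The methods list several SRSF11 siRNAs without saying which one gave these libraries, so the knockdown rests on siRNA of unstated sequence in a single line.

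Cells make cholesterol from acetyl-CoA through mevalonate, isoprenoid diphosphates, squalene and lanosterol. SREBP2 is a transcription factor held in the endoplasmic reticulum by SCAP and the INSIG proteins when membrane sterols are plentiful. When sterols fall, SCAP carries SREBP2 to the Golgi apparatus, where the proteases encoded by MBTPS1 and MBTPS2 release its active part. The active part raises transcription of the enzyme genes and of INSIG1, whose product closes the feedback loop.

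The promoter sequences of SREBP2 target genes often place a sterol regulatory element near boxes for the factor NF-Y. Promoters (250 bases before to 50 after an annotated start) were taken from RefSeq on GRCh38.p14 and were matched by symbol for 29 of the 33 members. The 8 letters TCACNCCA, a form of the sterol regulatory element, stood on either strand in 3 of the 29 promoters (10.3%), those of MVK, MSMO1 and SREBF2, against 4.53% of the 10601 tested genes with a matched promoter. The letters CCAAT stood on either strand in 21 of 29 (72.4%), against 42.5% of these tested genes. GGGCGG, the GC box, stood in 25 of 29 (86.2%) against 76.1%, and the E-box CACGTG in 5 of 29 (17.2%) against 12.5%. A gene with several annotated starts counted once if any of its promoters held the letters, and a match describes the sequence alone.

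Windows upstream of the start site are shown for 2 members with the sterol regulatory form and for 4 of the members with larger rises whose promoter held a CCAAT box. Each is written 5′ to 3′ on the strand of its gene, with TCACNCCA, CCAAT and the reverse complement ATTGG in capitals.
MSMO1, chr4:165327483-165327550, plus strand, outside annotated genes: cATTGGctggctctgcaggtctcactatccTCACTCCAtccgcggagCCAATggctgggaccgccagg
SREBF2, chr22:41832942-41833009, plus strand, over an exon of SREBF2-AS1 on the other strand: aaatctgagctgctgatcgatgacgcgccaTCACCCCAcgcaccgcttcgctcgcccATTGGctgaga
INSIG1, chr7:155297678-155297742, plus strand, outside annotated genes: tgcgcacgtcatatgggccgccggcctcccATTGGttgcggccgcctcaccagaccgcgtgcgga
DHCR7, chr11:71448453-71448517, minus strand, in an intron of a longer DHCR7 transcript: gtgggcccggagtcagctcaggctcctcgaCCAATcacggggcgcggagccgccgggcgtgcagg
LSS, chr21:46228890-46228954, minus strand, outside annotated genes: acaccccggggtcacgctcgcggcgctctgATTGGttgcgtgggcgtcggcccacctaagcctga
IDI1, chr10:1049202-1049266, minus strand, outside annotated genes: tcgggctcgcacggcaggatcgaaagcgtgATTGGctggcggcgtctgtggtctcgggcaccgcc

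In the MSMO1 window the sterol regulatory letters end 149 bases before the start site and lie between ATTGG and CCAAT. In the SREBF2 window they end 126 bases before it, with ATTGG downstream. The boxes shown for INSIG1, DHCR7, LSS and IDI1 end 166, 90, 146 and 113 bases before the start site, and the promoters of DHCR7 and IDI1 hold further such boxes. All 11 members with a matched promoter that were called higher below held CCAAT, as did 10 of the 18 other matched members, and this split uses the difference between conditions. The 4 members without a matched promoter were ABCG1, ACAT2, FDFT1 and SQLE, and all but ABCG1 were called higher.

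Library totals ranged from 14369525 to 15514404 counts in si-NC and from 15688702 to 16685719 in si-SRSF11, so every si-SRSF11 library was deeper. Mitochondrial genes took 7.003% to 7.25% of the counts in si-NC and 8.29% to 8.51% in si-SRSF11, and the part of either shift in the results below was not tested. SRSF11 was read first as a check of the labels and stood at 84.1 to 87.5 CPM (gene counts over library size, the latter in 1e+06 counts and scaled by edgeR's TMM factors) in si-NC and at 48.5 to 50.4 CPM in si-SRSF11. Of 11 colorectal epithelial markers, 10 had at least 10 counts in each library, and the exception was KRT20. Their summed level was 6322 to 6693 CPM in si-NC and 6415 to 6830 CPM in si-SRSF11, most of it from KRT8 and KRT18. The intestinal transcription factors CDX2 and CDX1 were higher without overlap, at log2 fold changes of 0.41 and 0.31 (adjusted p = 0.00038 and 0.0012 in edgeR's quasi-likelihood test), and their part in the results below was not tested. Of the markers of other cell types, DCN, LUM and PTPRC had 0 counts in each library, but others were detected. COL1A1 had 179 to 206 counts per library, CD14 39 to 67, PECAM1 6 to 21 and VWF 5 to 23. The 5 fibroblast markers summed to 12.4 to 13 CPM in si-NC and 10.96 to 13.2 CPM in si-SRSF11, nearly all of it COL1A1. The 4 immune markers summed to 2.63 to 3.17 and 3.70 to 4.10 CPM, nearly all of it CD14, and the 3 endothelial markers to 1.47 to 2.56 and 0.796 to 2.04 CPM. In bulk RNA, a change within each cell and a change in the share of cells that express a gene cannot be told apart.

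More of the cholesterol genes were higher than lower after SRSF11 knockdown. INSIG1 showed the largest difference of the well-measured members, followed by SQLE and DHCR7, while INSIG2 was lower and SREBF2 itself differed by less than its spread. A gene was called when its adjusted p was under 0.05 in edgeR's quasi-likelihood fit over the 15801 genes that reached 10 counts in 3 or more libraries. Of the 33 members, 32 entered the fit, 14 were called higher, against 13.2% of all tested genes, and 1 was called lower, against 11.4%. The 3 si-SRSF11 libraries lay above the 3 si-NC libraries for 17 members, against 20.0% of all tested genes, and below them for 2 members, against 18.9%. INSIG1 was the 1 member with a call and a log2 fold change over 1, which 0.544% of all tested genes reached. The set was chosen with this contrast in view, so nothing is read from these shares.

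The median log2 fold change was 0.17 over the 32 members and 0.002 over all tested genes. NPC1L1 and ABCA1 had few counts and reached the filter through the si-SRSF11 libraries, and ABCG1 did not reach it. Over the 30 members with a mean of at least 50 counts, the calls were the same 14 and 1, and the median was 0.14. For 15 of these 30 the 3 si-SRSF11 libraries lay above the 3 si-NC libraries, and for 2 below, against 20.0% and 18.9% of all tested genes.

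**Figure D1:**
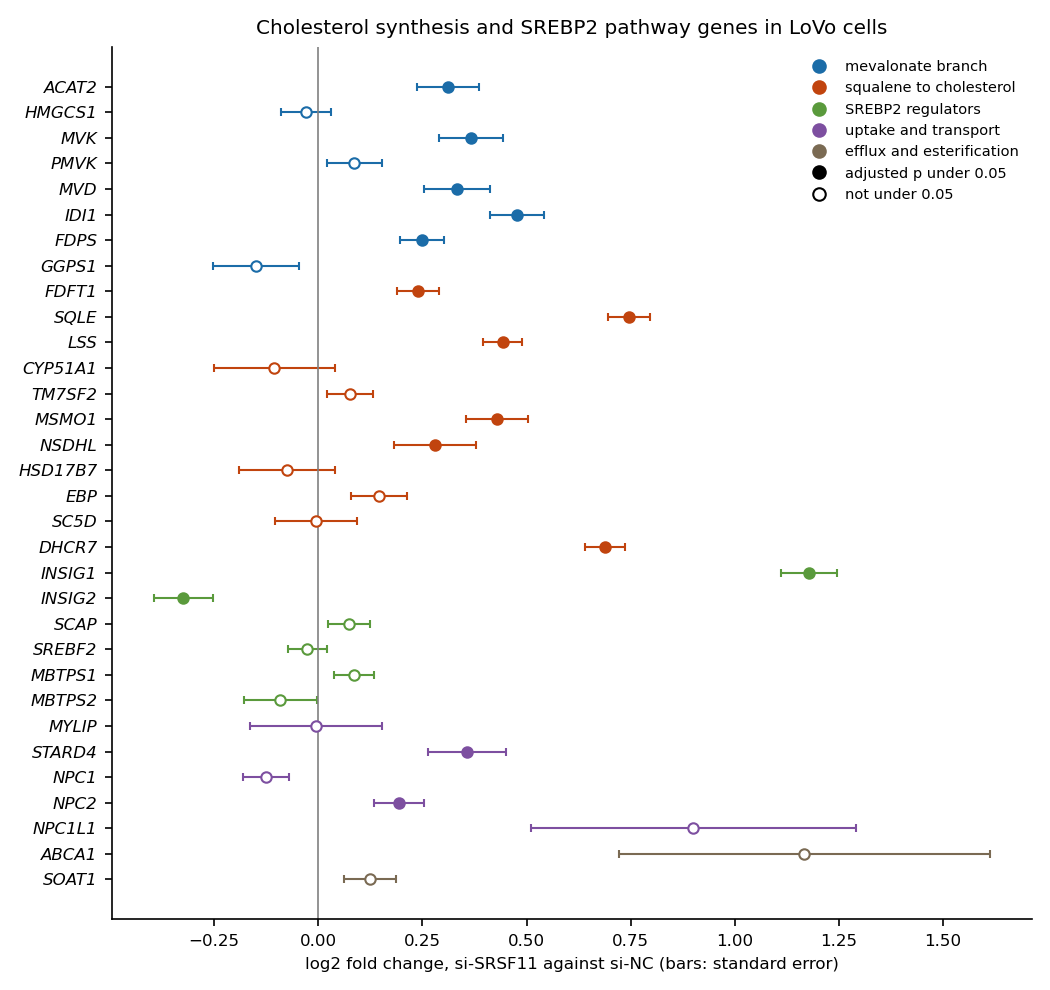
Log2 fold change of si-SRSF11 against si-NC (x axis, bars show the standard error) for the 32 tested members in pathway order (y axis), coloured by class, with filled points for an adjusted p under 0.05. INSIG1 lies farthest to the right among the filled points at 1.18 and INSIG2 is the filled point on the left at -0.32.

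The 8 enzymes that build the isoprenoid diphosphates were moderately higher in 5 cases, against 13.2% of all tested genes called higher, and not called in 3. IDI1, the isomerase that makes dimethylallyl diphosphate, stood at 34.8, 33.4 and 31.7 CPM in si-NC replicates 1, 2 and 3 and at 48.0, 44.8 and 46.1 CPM in si-SRSF11 replicates 1, 2 and 3. All 3 si-SRSF11 libraries were above the highest si-NC library, and the log2 fold change was 0.48 (standard error, SE, 0.066). MVK, mevalonate kinase, stood at 24.98, 22.9 and 23.4 CPM in si-NC and at 30.95, 29.6 and 31.3 CPM in si-SRSF11, again without overlap (log2 fold change 0.37, SE 0.076).

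MVD, the decarboxylase that yields isopentenyl diphosphate, was higher with a wide spread, at 37.8, 43.2 and 48.4 CPM in si-SRSF11 against 33.7, 34.0 and 35.05 CPM in si-NC. Its log2 fold change was 0.33, and it lay between 0.24 and 0.41 when each library was left out in turn. ACAT2, the cytosolic thiolase of the first step, averaged 29.7 ± 1.60 CPM in the si-NC libraries and 36.9 ± 2.33 CPM in the si-SRSF11 libraries (SD, n = 3 each). FDPS, which makes farnesyl diphosphate, averaged 69.9 ± 2.06 CPM and 83.1 ± 3.30 CPM (SD, n = 3 each). Neither ACAT2 nor FDPS overlapped between the groups.

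The other 3 enzymes did not follow. HMGCS1, the HMG-CoA synthase and a well-known SREBP2 target, had 46.6, 46.7 and 45.1 CPM in si-NC and 45.3, 45.4 and 44.8 CPM in si-SRSF11, so the 6 libraries lay close together and the groups overlapped. Its log2 fold change was -0.03 (SE 0.060) and lay between -0.07 and -0.02 in 15 other fits. PMVK, phosphomevalonate kinase, had a log2 fold change of 0.09 (SE 0.066). GGPS1, which leads farnesyl diphosphate away from sterols into geranylgeranyl diphosphate, had 14.3, 14.2 and 16.5 CPM in si-NC and 13.2, 13.5 and 13.96 CPM in si-SRSF11. Its groups did not overlap, si-SRSF11 lying below, but it was not called (log2 fold change -0.15, SE 0.10).

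From squalene onward 6 of 11 enzymes were called higher and none lower, against 13.2% and 11.4% of all tested genes. SQLE, the epoxidase that adds oxygen to squalene and a control point of the pathway, stood at 67.9, 66.2 and 68.6 CPM in si-NC and at 114, 113 and 112 CPM in si-SRSF11. The lowest si-SRSF11 library was far above the highest si-NC library, and the log2 fold change was 0.75 (SE 0.050, or 1.68-fold). DHCR7, the reductase that forms cholesterol in the last step, stood at 87.4, 86.3 and 91.0 CPM in si-NC and at 147, 139 and 140 CPM in si-SRSF11 (log2 fold change 0.69, SE 0.048). SQLE lies on chromosome 8 from 124998497 to 125022283 (plus strand) and DHCR7 on chromosome 11 from 71428193 to 71452868 (minus strand) of GRCh38, and neither shares exon bases with another annotated gene.

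LSS, which closes oxidosqualene into lanosterol, had 161, 156 and 152 CPM in si-NC and 211, 214 and 211 CPM in si-SRSF11. The groups were well apart, at a log2 fold change of 0.44 (SE 0.046). MSMO1, the methyl sterol oxidase that starts removal of the methyl groups at carbon 4, stood at 30.6, 37.3 and 32.8 CPM in si-NC and at 43.1, 45.7 and 46.9 CPM in si-SRSF11 (log2 fold change 0.43, SE 0.074). For FDFT1, squalene synthase, the means were 145 ± 5.30 and 171 ± 8.24 CPM (SD, n = 3 each), without overlap. NSDHL, which acts after MSMO1, was the weakest call. Its groups overlapped, with 19.3, 17.5 and 16.02 CPM in si-NC and 22.3, 18.9 and 22.8 CPM in si-SRSF11, and the call was lost in 7 of 15 other fits, DESeq2 among them, with a log2 fold change down to 0.21 without si-NC replicate 3.

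The other 5 enzymes of this stretch overlapped between the groups and were not called. EBP, the sterol isomerase, had a log2 fold change of 0.14 (SE 0.067), and was called higher with the replicate number as a block and without si-NC replicate 3 (0.21). TM7SF2, a sterol reductase, had a log2 fold change of 0.08. SC5D, a desaturase, had -0.01, with si-NC replicate 1 at 18.3 CPM below the other 5 libraries at 21.8 to 24.2 CPM. HSD17B7, a keto-reductase of the steps at carbon 4, had -0.07 and CYP51A1, the lanosterol demethylase, had -0.11 with a standard error of 0.14, its libraries ranging from 6.38 to 9.37 CPM. Called and uncalled enzymes stood next to each other in both stretches of the chain.

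**Figure D2:**
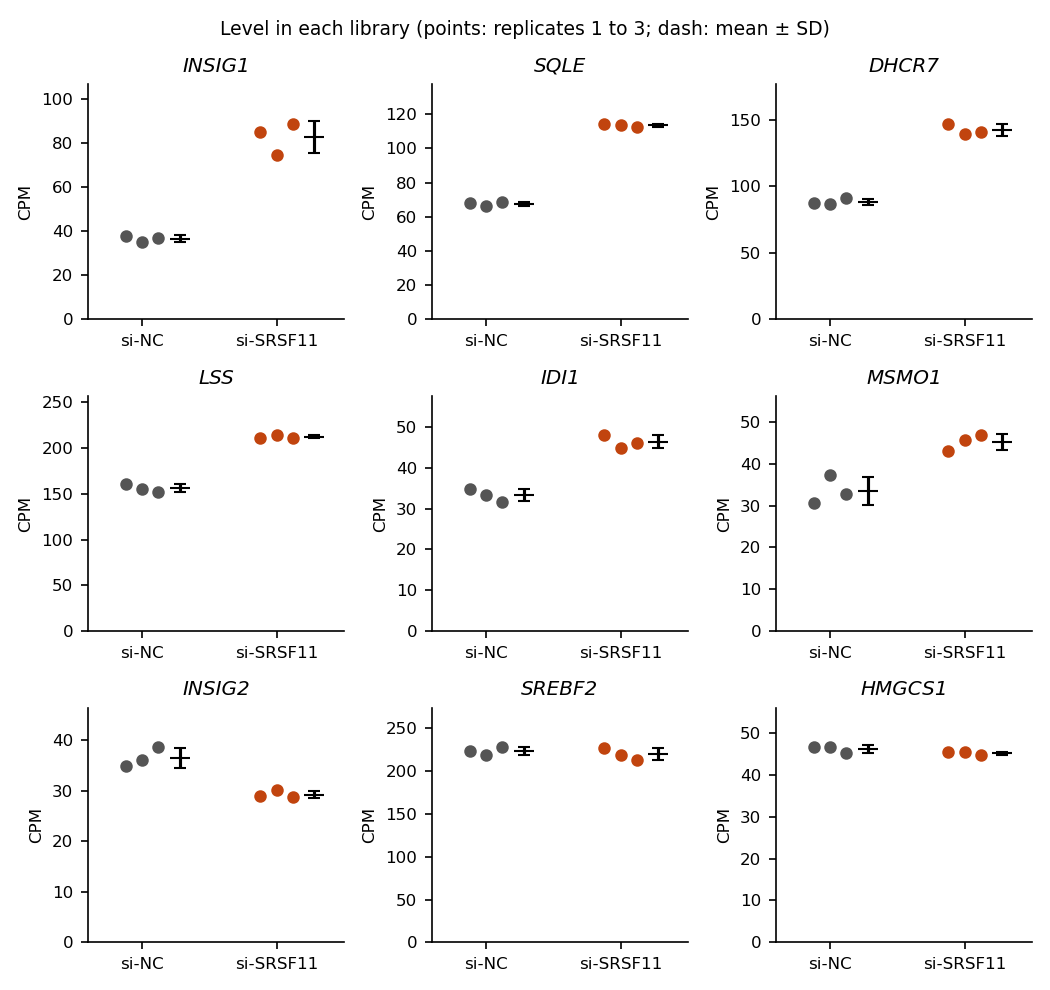
CPM of 9 members (y axes, each from 0) in the 3 si-NC and the 3 si-SRSF11 libraries (x axes), with the mean and SD as a dash with a bar. The si-SRSF11 points lie above all si-NC points for INSIG1, SQLE, DHCR7, LSS, IDI1 and MSMO1, below them for INSIG2, and overlap with them for SREBF2 and HMGCS1.

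Summed over the 8 mevalonate-branch enzymes, the level was 299, 300 and 304 CPM in si-NC and 348, 344 and 360 CPM in si-SRSF11, a ratio of the means of 1.17. Summed over the 11 enzymes from squalene onward, it was 692, 681 and 709 CPM against 898, 884 and 921 CPM, a ratio of 1.30. LSS, FDFT1, SQLE and DHCR7 carried most of the gain in the 19 enzymes together, whose sum averaged 995 ± 16.4 CPM in control cells and 1252 ± 26.1 CPM after knockdown (SD, n = 3 each). The other 15 enzymes summed to 538 ± 14.1 and 613 ± 21.04 CPM (SD, n = 3 each). The groups did not overlap in any of these sums. For the 6 SREBP2 regulators the ratio was 1.08, and INSIG1 made that gain, since the other 5 averaged 541 ± 17.4 and 542 ± 14.1 CPM (SD, n = 3 each) with overlap.

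**Figure D3:**
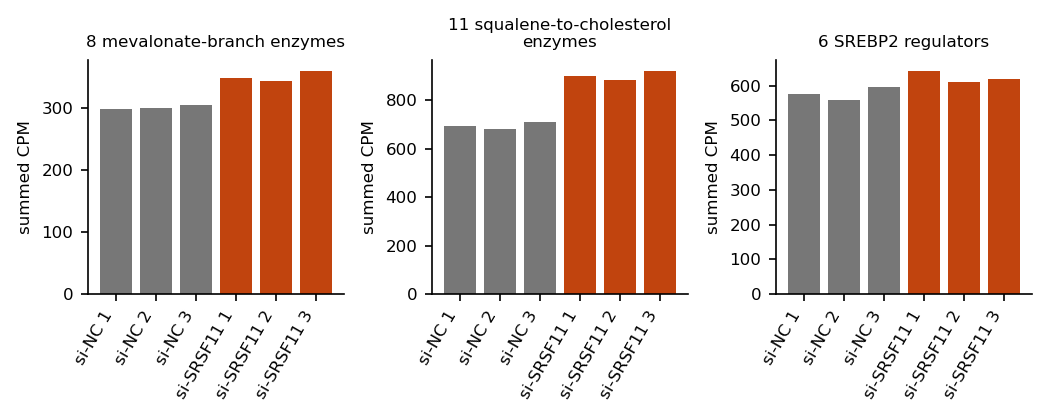
Summed CPM (y axes, from 0) in each of the 6 libraries (x axes) for the 8 mevalonate-branch enzymes, the 11 enzymes from squalene to cholesterol and the 6 SREBP2 regulators. In each panel the 3 si-SRSF11 bars are taller than the 3 si-NC bars, by a ratio of the means of 1.17, 1.30 and 1.08, the last of which comes from INSIG1.

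The genes that control SREBP2 moved unequally. INSIG1, on chromosome 7 from 155297776 to 155310235 (plus strand), had 552, 534 and 572 counts in the 3 si-NC libraries and 1331, 1214 and 1448 counts in the 3 si-SRSF11 libraries, which is 38.0, 35.1 and 36.6 CPM against 84.9, 74.6 and 88.6 CPM. Each si-SRSF11 library was far above the highest si-NC library, and the log2 fold change was 1.18 (SE 0.067, or 2.26-fold). Of all tested genes, 57 had a larger log2 fold change. INSIG2, the paralog with the same anchoring role, stood on chromosome 2 from 118088452 to 118110997 (plus strand) and went the other way, with 34.8, 36.1 and 38.7 CPM in si-NC and 28.8, 30.1 and 28.7 CPM in si-SRSF11. The groups did not overlap, and its log2 fold change was -0.32 (SE 0.071). Per length the mean levels of INSIG1 and INSIG2 were 10.02 and 9.25 CPM per kb in si-NC and 22.7 and 7.40 CPM per kb in si-SRSF11.

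SREBF2, which encodes SREBP2, had 224, 219 and 228 CPM in si-NC and 227, 219 and 213 CPM in si-SRSF11. The groups overlapped and the log2 fold change was -0.03 (SE 0.047), the smallest standard error of the 6 regulators. SCAP, the escort protein, averaged 155 ± 7.34 CPM in control cells and 163 ± 6.14 CPM after knockdown (SD, n = 3 each), also with overlap. MBTPS1, the first protease, lay slightly higher in each si-SRSF11 library, at 100 to 103 CPM against 92.9 to 98.2 CPM, and was not called (log2 fold change 0.09, SE 0.049). MBTPS2, the second protease, had a log2 fold change of -0.09 (SE 0.088). Transcript levels give no reading of how much SREBP2 protein is cleaved.

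Of the uptake and transport genes, STARD4 and NPC2 were called higher. STARD4, a cytosolic sterol carrier, stood at 17.96, 17.9 and 18.6 CPM in si-NC and at 25.8, 20.9 and 23.02 CPM in si-SRSF11, without overlap (log2 fold change 0.36, SE 0.093). Without si-SRSF11 replicate 1, its call was lost at a log2 fold change of 0.27. NPC2, the soluble lysosomal cholesterol carrier, stood at 73.4, 73.6 and 72.8 CPM in si-NC and at 81.7, 77.3 and 92.4 CPM in si-SRSF11 (log2 fold change 0.19, SE 0.060). Its call was lost in 5 of 15 other fits, and si-SRSF11 replicate 3 moved it most, since the log2 fold change was 0.11 without it.

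NPC1, the membrane partner of NPC2 in the lysosome, leaned the other way, with 109, 107 and 98.8 CPM in si-NC and 102, 95.1 and 91.3 CPM in si-SRSF11. The groups overlapped and it was not called (log2 fold change -0.13, SE 0.055), although scaling by library size alone or leaving out si-SRSF11 replicate 1 called it lower. MYLIP, a ubiquitin ligase that marks lipoprotein receptors for breakdown, had 5.44, 7.03 and 6.22 CPM against 5.17, 6.33 and 7.10 CPM, with a log2 fold change of -0.01. NPC1L1, which takes up sterol at the intestinal brush border, was barely detected, with 9, 14 and 7 counts in si-NC and 16, 17 and 27 counts in si-SRSF11.

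The efflux transporters were near the limit of detection. ABCA1 had 10, 5 and 4 counts in si-NC and 16, 15 and 15 counts in si-SRSF11, and ABCG1 had 8, 7 and 9 counts against 3, 6 and 10. ABCA1 had a log2 fold change of 1.17 with a standard error of 0.45 and was not called, while limma-voom, or leaving out si-NC replicate 1, called it higher (log2 fold changes 1.23 and 1.68). SOAT1, which esterifies cholesterol for storage, stood at 41.7, 43.9 and 42.9 CPM in si-NC and at 48.2, 47.5 and 44.4 CPM in si-SRSF11. Each si-SRSF11 library lay above the si-NC libraries, but the log2 fold change of 0.12 (SE 0.062) was not called.

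Levels between genes were compared per length, as CPM per kb of annotated exon sequence. In si-NC, PMVK had the highest level at 38.2 CPM per kb, followed by SREBF2 at 29.6, FDFT1 at 27.9 and NPC2 at 26.7. SQLE stood at 15.7 CPM per kb, INSIG1 at 10.02, HMGCS1 at 9.81 and IDI1 at 7.66. At the low end were MYLIP at 2.05, NPC1L1 at 0.126, ABCG1 at 0.0864 and ABCA1 at 0.0374 CPM per kb. In si-SRSF11, DHCR7 moved from rank 9 of 33 to rank 2 at 34.2 CPM per kb, and INSIG1 moved from rank 14 to rank 11 at 22.7 CPM per kb. PMVK stayed at rank 1. The lengths cover all annotated exons of a gene, so genes with many unused exons are understated.

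**Figure D4:**
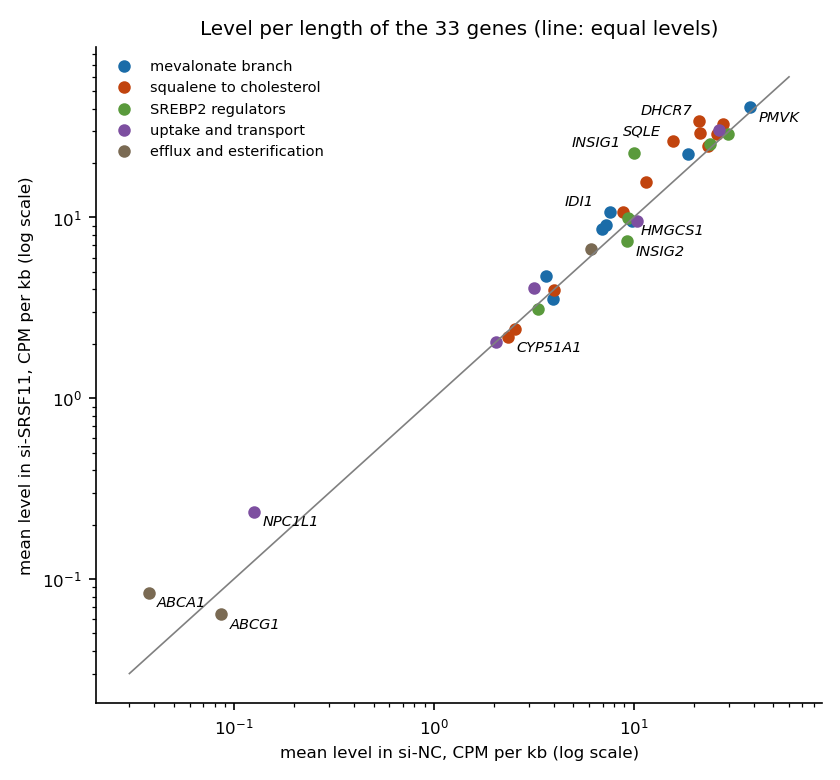
Mean level of the 33 members in si-NC (x axis) and si-SRSF11 (y axis), both in CPM per kb on log axes, coloured by class, with a line of equal levels. Most genes lie near the line, INSIG1, SQLE and DHCR7 lie above it, and INSIG2 lies below it. NPC1L1 and ABCA1 also lie above the line and ABCG1 below it, but these genes had few counts and lie under 0.3 CPM per kb on both axes.

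Within a condition, the highest library differed from gene to gene. Over the 30 well-measured members, si-NC replicates 1, 2 and 3 were the highest of their 3 libraries for 7, 7 and 16 genes, and si-SRSF11 replicates 1, 2 and 3 for 11, 5 and 14 genes. The median deviation of a library from its group mean lay between -0.02 and 0.03 in log2 CPM.

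No source says that the counting used strand, and some members share exon bases with other genes. ACAT2 shares 52.3% of its exon bases with SOD2-OT1, SOD2 and TCP1 on the other strand. TCP1, a chaperonin subunit, had 3329 to 4177 counts per library and a log2 fold change of 0.12. SOD2-OT1 and the overlapping entry named SOD2 (chromosome 6, 159679119 to 159762529) had 0 or 1 counts. How reads shared between entries were counted is not stated, so these counts give no reading of SOD2 expression. SOD2-OT1, SOD2 and TCP1 hold 65.5% of the 100-nt windows of ACAT2, so the ACAT2 level is uncertain. CYP51A1 shares 83.2% with readthrough genes and an antisense gene. The readthrough gene AC000120.2, which holds 88.3% of the 100-nt windows of CYP51A1, had 0 counts in each library, so the CYP51A1 level is uncertain. GGPS1 shares 41.0%, mostly with TBCE on the same strand, and is uncertain too. FDPS shares 18.6% with RUSC1-AS1 (57 to 81 counts per library), HMGCS1 15.0% with AC114947.2 and IDI1 14.8% with IDI2-AS1, both of which had at most 5 counts in any library. MBTPS2 shares 13.4%, LSS 7.88%, NPC2 6.37% and NPC1 5.98%. NPC1 overlaps RMC1 on the other strand, a gene that was lower in si-SRSF11 (log2 fold change -0.38, adjusted p = 0.0014 in edgeR's quasi-likelihood test). SREBF2 shares 3.71% with SREBF2-AS1, which was higher (log2 fold change 0.35, adjusted p = 0.036 from the same test). The pseudogene HSD17B7P2 holds 5.72% of the 100-nt windows of HSD17B7, and CYP51A1P1 and CYP51A1P2 hold 2.64% and 3.38% of those of CYP51A1. Among the 23 members that share under 5% of their exon bases, 9 were called higher and 1 lower, against 13.2% and 11.4% of all tested genes. ABCG1 is among the 23 but was not fitted. Their median log2 fold change of 0.19 includes NPC1L1 (0.90) and ABCA1 (1.17), which had few counts.

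Related genes were read from 6 lists written with the earlier account of these data known, and all were tested in the same fit, where 13.2% of all tested genes were higher and 11.4% lower. Of 17 accessory genes of SREBP cleavage and sterol sensing, 6 were higher and none lower, with 8 at an unadjusted p under 0.05, which 36.3% of all tested genes reached. The list does not separate genes that promote cleavage from genes that restrain it. TMEM97, a sterol-binding membrane protein, rose from 35.1 to 49.8 CPM in the means (log2 fold change 0.50, adjusted p = 1e-05 in edgeR's quasi-likelihood test), and VCP, the ATPase that extracts proteins from the endoplasmic reticulum, had a log2 fold change of 0.28. UBXN8, a VCP cofactor, had 0.48, and SEC23A, a coat protein of the vesicles that leave the endoplasmic reticulum, had 0.26. For each of these genes the 3 si-SRSF11 libraries lay above the 3 si-NC libraries.

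Among uptake, lysosomal and transfer proteins, 9 of 24 tested genes were higher and 1 lower, against 13.2% and 11.4% of all tested genes. OSBPL8, a lipid exchanger at membrane contacts, rose from 118 to 175 CPM in the means (log2 fold change 0.57, adjusted p = 3e-08 in edgeR's quasi-likelihood test). OSBPL5, a related exchanger, had a log2 fold change of 0.43, LRP8, a lipoprotein receptor, one of 0.39, and SCARB1, the high-density lipoprotein receptor, one of 0.28. In the fatty acid list, 11 of 24 tested genes were higher and 4 lower, against the same shares. SCD, the stearoyl-CoA desaturase, had 737 to 752 CPM in si-NC and 874 to 969 CPM in si-SRSF11 (log2 fold change 0.32), and ACSL5, an acyl-CoA synthetase, had a log2 fold change of 0.37. FADS3 (-0.43) and ACSL1, another acyl-CoA synthetase (-0.39), were lower without overlap.

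Of 22 tested genes that use mevalonate products outside sterols, 4 were higher (18.2%) and 2 lower (9.09%), near the shares of all tested genes, with a median log2 fold change of -0.02. RABGGTB, a Rab prenyltransferase subunit, had 0.22 and SRD5A3, a polyprenol reductase, 0.36, while RCE1, a protease of prenylated proteins, had -0.34 and ZMPSTE24, another such protease, 0.22, a call that was lost without si-NC replicate 1 (0.20). Of 16 tested genes on LXR receptors, efflux and esters, 1 was higher (6.25%) and 4 were lower (25.0%), against 13.2% and 11.4% of all tested genes. NR1H3, which encodes the receptor LXR alpha, had a log2 fold change of 0.30, and the call was lost when si-NC replicate 2 or si-SRSF11 replicate 2 was left out (0.22 and 0.27). The transporters ABCA2 (-0.24) and ABCA7 (-0.22) and the cholesteryl ester hydrolase NCEH1 (-0.30) were lower. Of 13 electron donors and helpers, 1 was higher (7.69%) and 3 were lower (23.1%), against the same shares of all tested genes. CYB5R2, a cytochrome b5 reductase, was among the lower genes (log2 fold change -0.55). Over the 116 tested genes of the 6 lists, 32 (27.6%) were higher, against 13.2% of all tested genes, and 14 (12.1%) lower, near the 11.4% of all tested genes. Scaling by library size alone gave 27 higher and 20 lower, where 1588 of all 15801 tested genes were higher and 2286 lower.

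**Figure D5:**
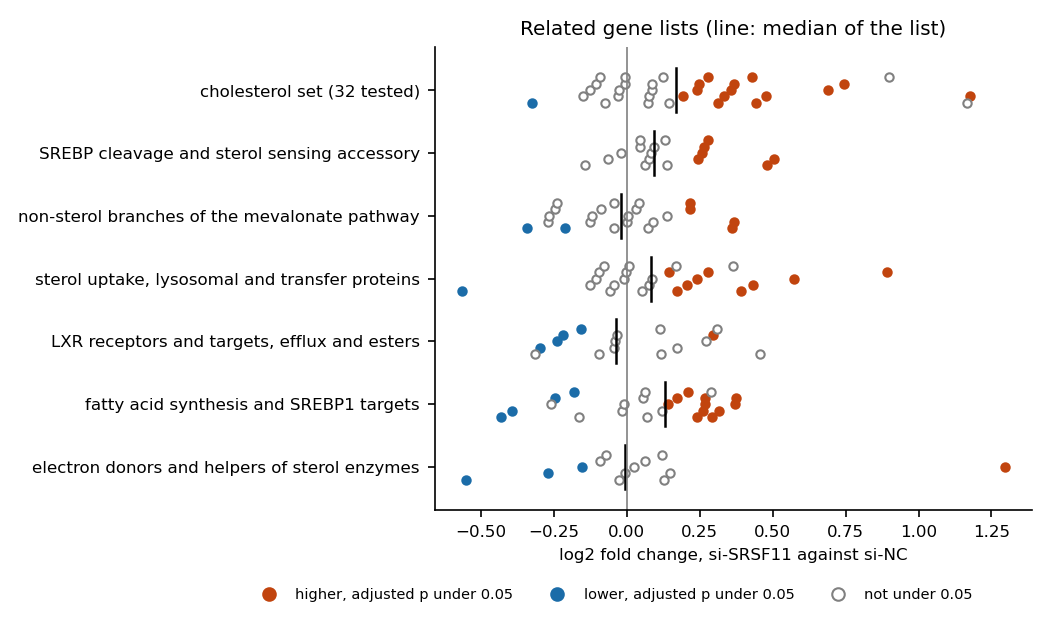
Log2 fold change of si-SRSF11 against si-NC (x axis) for each tested gene of the cholesterol set and of 6 related lists (y axis), with orange and blue points for an adjusted p under 0.05 and a black line at the median. The median lies at 0.17 for the cholesterol set, at 0.13 for fatty acid synthesis and at -0.04 for the LXR and efflux list.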

How the data were processed

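RNA-seq was read in 3 si-NC and 3 si-SRSF11 libraries of LoVo cells, grouped by the deposited labels. The authors deposited raw counts per gene, without normalization, on hg38, and the names, coordinates and exon lengths of all 58735 genes equal those of GENCODE 29 (Ensembl 94). The aligner and counting program are not given in the sources used here. Genes that reached 10 counts in 3 or more libraries (15801) entered the fit, with TMM scaling, in edgeR (version 4.0.16, R version 4.3.3) by glmQLFit and glmQLFTest on condition alone, with Benjamini-Hochberg adjustment over all tested genes. Standard errors came from the F statistic of that fit. Alternatives were DESeq2 (version 1.42.0), limma-voom (limma version 3.58.1), other scaling and filters, a replicate block, and fits that each dropped 1 library. The members and lists were chosen with earlier results of these data known. Named are all members, SRSF11, the markers, genes that share sequence with a member, and at most 4 genes per related list with the smallest adjusted p under 0.05. Some genes that this rule would name are not reported here. The study calls the RNA samples independent and speaks of pairs of control and knockdown, without saying what a pair shares. Separate cultures are not named, so the spread may be technical in part.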

Additional observations from a re-analysis of the deposited data

How the results depend on the processing

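In 15 other fits the count of members called higher stayed between 12 and 15, and 11 members (ACAT2, MVK, MVD, IDI1, FDPS, FDFT1, SQLE, LSS, MSMO1, DHCR7 and INSIG1) were called higher in each of them, as INSIG2 was called lower. The background moved between fits, so nothing is read from the stable count. Of all tested genes, the main fit called 2081 of 15801 higher and the replicate block 2147 of 15801. Library size alone called 1588 of 15801 higher, and the fit without a filter 1906 of 31826. Scaling by library size alone called 2 members lower, NPC1 being added, and gave a median log2 fold change over the members of 0.135, while it moved the median of all genes to -0.03 and the share of higher genes among all calls from 53.6% to 41.0%. Without a filter on low counts the median of the members was 0.139. Over fits that each dropped 1 library, the members' median ranged from 0.135 to 0.219, the members called higher from 12 to 14 and those called lower from 1 to 2, and SRSF11 stayed between -0.82 and -0.79. Of the 15543 to 15626 genes tested in these fits, 1473 to 1981 were called higher and 1268 to 1890 lower. An adjusted p under 0.01 left 12 members higher and 1 lower, and 21 genes of the related lists higher and 10 lower. The share of all tested genes at that limit was not counted, so nothing is read from these counts. Alternatives chosen after seeing the data gave a median of 0.135 over the 30 well-measured members, and 9 members higher with a median of 0.192 among the 23 with little shared exon sequence. The latter median includes NPC1L1 and ABCA1, which had few counts. The study speaks of paired samples without saying what a pair shares. For that reason replicate numbers were not taken as pairs in the main fit. The deviations of same-numbered libraries had correlations of 0.015, 0.036 and 0.040, each the best match of its library. The other combinations lay between -0.034 and -0.003, so the data give a slight hint toward pairs. With the number as a block, 15 members were called higher, EBP being added, and 1 lower. Depth limits what can be seen for ABCA1, ABCG1 and NPC1L1, which had at most 27 counts in a library. The cause of these shifts was not tested.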

Other observations

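Among the related lists, 3 genes outside the naming rule were picked after their values were seen. GRAMD1B, which moves cholesterol from the plasma membrane to the endoplasmic reticulum, stood at 4.75, 3.81 and 4.81 CPM in si-NC and at 9.32, 7.06 and 8.45 CPM in si-SRSF11 (log2 fold change 0.89, adjusted p = 0.00024 in edgeR's quasi-likelihood test). CAV1, the coat protein of cholesterol-rich caveolae, averaged 20.5 ± 0.879 CPM in si-NC and 13.9 ± 0.848 CPM in si-SRSF11 (SD, n = 3 each), and its log2 fold change was -0.57 (adjusted p = 0.00014 from the same test). SREBF1, which encodes SREBP1, averaged 286 ± 11.9 CPM and 344 ± 9.92 CPM (SD, n = 3 each), and its log2 fold change was 0.27 (adjusted p = 0.00024 from the same test), beside the log2 fold change of -0.03 of SREBF2. The libraries of the 2 groups did not overlap for these 3 genes.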
